A study of Mus musculus with 2 samples.

Results

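The genes of the matrix metalloproteases (Mmp), the ADAMTS proteases (Adamts) and the tissue inhibitors of metalloproteases (Timp) were followed across the cells of the mouse uterus. They were chosen by symbol alone, and 45 of the 32285 annotated genes matched, 22 Mmp, 19 Adamts and 4 Timp genes. Of these, 35 held at least 100 UMIs over both libraries (13 Mmp, 18 Adamts and all 4 Timp genes). None of the 45 was at 0. A UMI (unique molecular identifier) marks 1 captured RNA molecule.

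One group of mice (DOX) was given doxorubicin, an anthracycline that damages DNA, at 3 mg/kg. The other (DOX plus AMH) was given doxorubicin at 3 mg/kg and anti-Müllerian hormone, a ligand of the TGF-beta family, at 0.75 mg/kg. Uteri were taken at 4 h, and those of 5 animals were pooled into 1 droplet library per group, so doxorubicin was common to both groups and no untreated library was analysed here. The tissue was dissociated with papain and collagenase A, and 10000 cells per group were collected. The series text describes 2 weekly doses from postnatal day 25 for bulk sequencing, which is not stated for these animals, and strain is not given in the sources used here. With 1 library per group no difference could be tested. Ratios are therefore descriptions of 2 libraries, and every interval is an exact 95% interval that covers counting error only.

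Matrix metalloproteases are zinc enzymes that are made with an inhibitory prodomain and cut collagens, laminins, growth factors and other proteases once it is removed. ADAMTS enzymes are secreted relatives with thrombospondin repeats. Some cleave the proteoglycans versican and aggrecan, and others trim the ends of procollagen so that fibrils can form. The 4 TIMP proteins bind the active site of these enzymes, and Timp3 stays in the matrix and also blocks ADAM and ADAMTS proteases. In the uterus this system is known for remodelling of the stroma in the cycle, at implantation and after birth.

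The DOX library held 129530270 UMIs over 9258 barcodes and the DOX plus AMH library 97887259 UMIs over 8083 barcodes, and the libraries shared 13 barcodes. After filters on depth, mitochondrial share and doublets, 7343 and 6738 cells were kept, with median depths of 13710 and 10100.5 UMIs. Cells were clustered without the 45 genes and classes were named from marker genes, so no protease or inhibitor shaped its own class. Stromal-like cells numbered 4932 and 3685, smooth muscle-like cells 913 and 1127. Smaller compared classes held between 57 and 279 cells per library. They were pericyte-like (80 and 125), vascular endothelial-like (139 and 241), lymphatic endothelial-like (75 and 57), mesothelial-like (89 and 137), epithelial-like (266 and 123), macrophage or monocyte-like (279 and 221), dendritic-like (131 and 77) and lymphocyte-like cells (78 and 83). Cluster 17 (147 and 240 cells), led by Rergl, Hpse2 and Map3k7cl, scored almost equally for smooth muscle and pericyte markers and stayed unnamed. Cluster 13 (70 and 0 cells), nearest to pericytes by score and led by Slc38a11 and Rasgrf2, also stayed unnamed and lies outside the pericyte-like class. Squamous-like cells were nearly all in 1 library (7 and 483) and were not compared. Of the stromal clusters 7 were compared, and the dividing cluster (236 and 45 cells) was too small in DOX plus AMH. Summed erythroid markers, the haemoglobin genes and Alas2, were higher in DOX plus AMH in all compared classes, from 34.0 to 92.6 CPM in stromal-like, 17.0 to 3810 CPM in smooth muscle-like and 12.3 to 10708 CPM in cluster 17. Summed squamous markers were also higher in DOX plus AMH in each of these classes, at 4.32 and 54.6 CPM in stromal-like, 2.41 and 50.1 CPM in smooth muscle-like, 0 and 66.5 CPM in pericyte-like and 0.39 and 389 CPM in macrophage or monocyte-like cells. The part of either list in the results below was not tested.

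The reference sequences before 4 of the genes are printed because results below turn on these genes and the windows differ in the motifs they hold. Each runs 5′ to 3′ on the gene's own strand and ends 1 base before its annotated start, from RefSeq promoter windows of build GRCm38.p6 (mm10). Capitals mark matches, on either strand, to the SP1 motif GGGCGG, the TATA-box letters TATAAA, the AP-1 motif TGANTCA and the palindrome GGCGCC. Adamts1 lies on chromosome 16 (minus strand) and its window is chr16:85803114-85803363. Timp3 lies on chromosome 10 (plus strand, within Syn3 on the opposite strand), and its window is chr10:86300162-86300371. The Adamts2 window is chr11:50601835-50602083 and the Mmp3 window chr9:7445572-7445821, both on the plus strand.
Adamts1: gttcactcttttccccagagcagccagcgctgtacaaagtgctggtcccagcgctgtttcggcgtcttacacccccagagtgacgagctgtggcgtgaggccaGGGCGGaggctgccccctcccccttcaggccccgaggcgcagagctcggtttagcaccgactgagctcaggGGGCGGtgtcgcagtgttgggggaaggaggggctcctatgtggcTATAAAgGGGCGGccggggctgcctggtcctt
Timp3: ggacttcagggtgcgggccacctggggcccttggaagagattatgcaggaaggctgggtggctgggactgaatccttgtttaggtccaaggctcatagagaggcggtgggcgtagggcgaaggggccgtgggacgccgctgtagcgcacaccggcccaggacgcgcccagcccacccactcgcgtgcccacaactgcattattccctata
Adamts2: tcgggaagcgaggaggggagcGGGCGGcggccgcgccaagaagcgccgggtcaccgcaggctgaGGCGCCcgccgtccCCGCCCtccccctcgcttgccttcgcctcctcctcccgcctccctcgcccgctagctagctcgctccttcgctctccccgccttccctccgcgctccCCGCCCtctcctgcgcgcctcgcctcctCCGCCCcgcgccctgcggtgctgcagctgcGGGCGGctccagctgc
Mmp3: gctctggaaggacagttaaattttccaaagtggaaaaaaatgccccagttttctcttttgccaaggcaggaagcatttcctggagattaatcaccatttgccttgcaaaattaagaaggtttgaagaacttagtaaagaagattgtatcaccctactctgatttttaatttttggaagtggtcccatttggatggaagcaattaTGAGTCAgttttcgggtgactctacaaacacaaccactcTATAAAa
The windows of Adamts1, Timp3 and Adamts2 were rich in G and C (65.6%, 63.8% and 77.9%), and that of Mmp3 was not (37.6%). Adamts1 held 3 GGGCGG matches and a TATAAA match, Adamts2 held 5 GGGCGG matches and 1 GGCGCC match, and Timp3 held none of these motifs in the printed 210 bases. The full Timp3 window, which runs past the annotated start, does hold the SP1 motif and is 1 of 16 members' windows counted with it. Mmp3 held a TGAGTCA match whose last base lies 39 bases before the end of its window, and a TATAAA match. Over 32851 windows of 250 bases, the AP-1 motif was found in 6.75%, the SP1 motif in 32.7%, the TATA-box letters in 12.4%, the palindrome in 9.59% and TGACGTCA, a cAMP response element, in 1.55%. Windows were at hand for 31 of the 45 genes. Of these, 7 held the AP-1 motif, and all 7 (Mmp1b, Mmp3, Mmp7, Mmp10, Mmp12, Mmp13 and Mmp20) belong to a run of 9 Mmp genes on chromosome 9 (7272514 to 7699585, mm10). A match is a string of letters and was not tested as a binding site.

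Each gene had its own distribution over the cell classes, shown in the map of levels by class. Of the 35 genes with enough UMIs, 6 were highest in stromal-like cells (Mmp2, Mmp3, Mmp16, Mmp19, Mmp23 and Adamts19) and 6 in cluster 17 (Mmp17, Adamts1, Adamts5, Adamts8, Adamts15 and Adamts16). Pericyte-like cells were highest for 5 (Mmp11, Adamts4, Adamts7, Adamts10 and Adamts12) and vascular endothelial-like cells for 5 (Mmp15, Mmp28, Adamts9, Adamts18 and Timp4). Mesothelial-like cells were highest for 4 (Adamts2, Adamts17, Timp1 and Timp2). Levels are given as CPM, the gene's UMIs scaled to a common total of all UMIs in the class, and each pair of values gives DOX first. In stromal-like cells, summed levels were close in the 2 libraries, at 781 and 794 CPM for Mmp, 793 and 798 CPM for Adamts and 512 and 490 CPM for Timp genes. Single members of a family differed more.

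**Figure D1:**
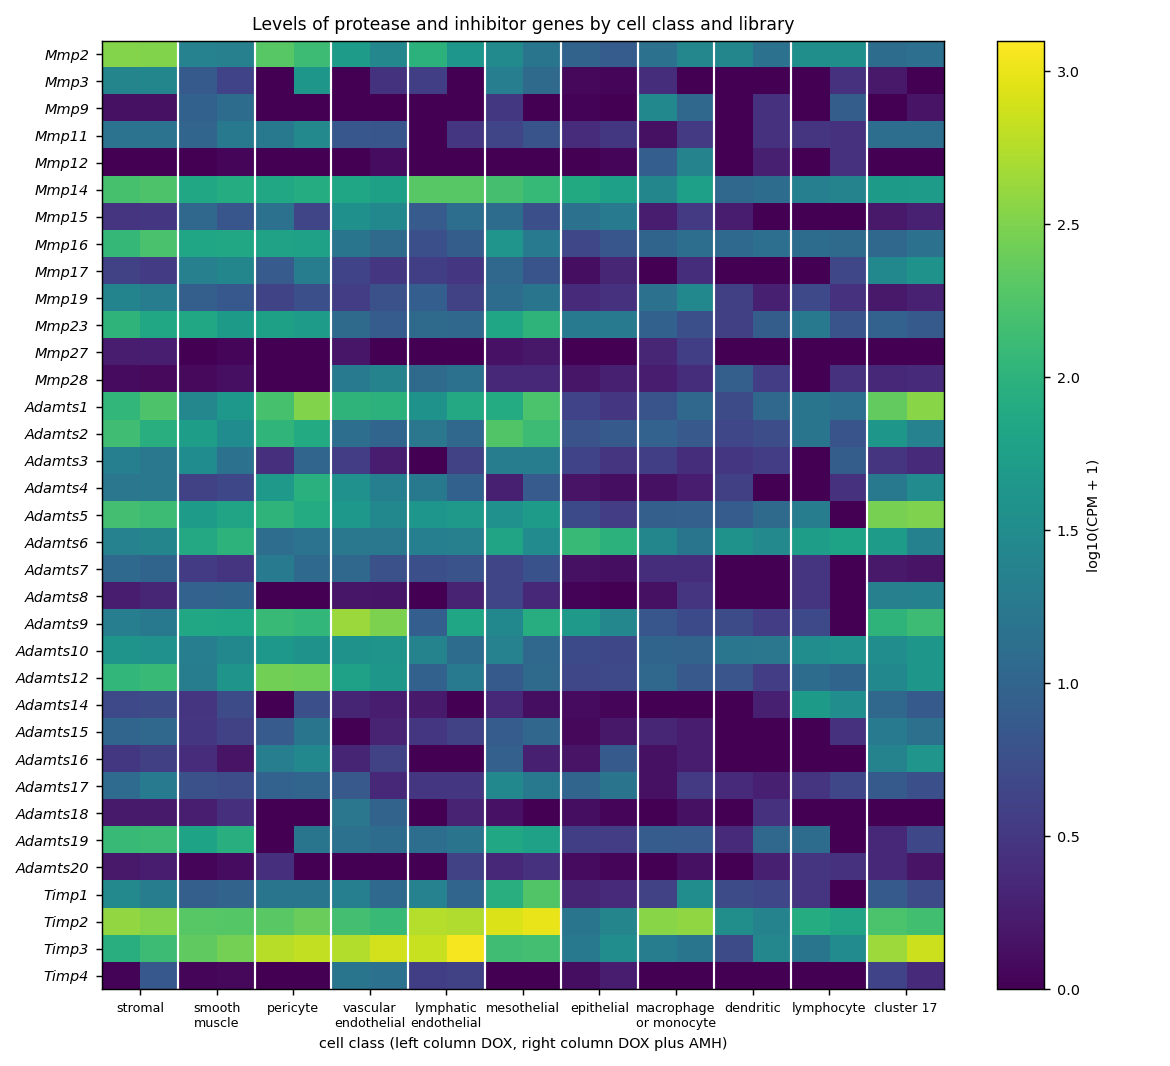
Heat map of log10(CPM + 1) for the 35 genes with at least 100 UMIs (rows) in 11 compared classes, with the DOX library in the left and the DOX plus AMH library in the right column of each class. Mmp2 is brightest in stromal-like cells (334 and 324 CPM), Adamts9 in vascular endothelial-like cells (426 and 306 CPM) and Timp3 in lymphatic endothelial-like cells (700 and 1134 CPM).

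In stromal-like cells, 29 of the genes held at least 100 UMIs. Of these 29, 5 were at least 1.5-fold higher in DOX plus AMH (Adamts1, Adamts8, Adamts17, Timp3 and Timp4), where 11.3% of the 14733 genes counted there were. Only Adamts2 was at least 1.5-fold lower, where 3.98% of all genes were. The median log2 ratio, DOX plus AMH over DOX, was 0.03 over the 29 and 0.16 over all genes. The 3 genes past 1.5-fold that also stood at 0.2 or more of their highest class, the guard used here against RNA free in the suspension, were Adamts1, Adamts17 and Timp4 on the higher side. Without the dividing cluster, a choice made after seeing the data, 2 genes were at least 1.5-fold higher (Adamts17 and Timp3) and Adamts2 remained lower. Adamts8 left that count at 46 UMIs in each library, under the minimum, with a log2 ratio of 0.83.

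In smooth muscle-like cells 22 genes were counted. Mmp11, Adamts1 and Adamts12 were at least 1.5-fold higher, 3 of 22 where 6.92% of 10818 genes were. Of these, only Mmp11 reached 0.2 of its highest class. Mmp15, Adamts2 and Adamts3 were at least 1.5-fold lower, 3 of 22 where 3.51% were. The median was 0.18 over the 22 and 0.13 over all genes. Scaling by TMM, which sets the bulk of genes level, shifted every ratio by -0.22 in stromal-like, -0.13 in smooth muscle-like, 0.16 in mesothelial-like and -0.11 in macrophage or monocyte-like cells. Relative to that shift Adamts1 and Timp3 stayed above 0 in stromal-like cells (0.39 and 0.39) but under 1.5-fold, and Mmp23 and Timp1 were more than 1.5-fold lower (-0.76 and -0.70).

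**Figure D2:**
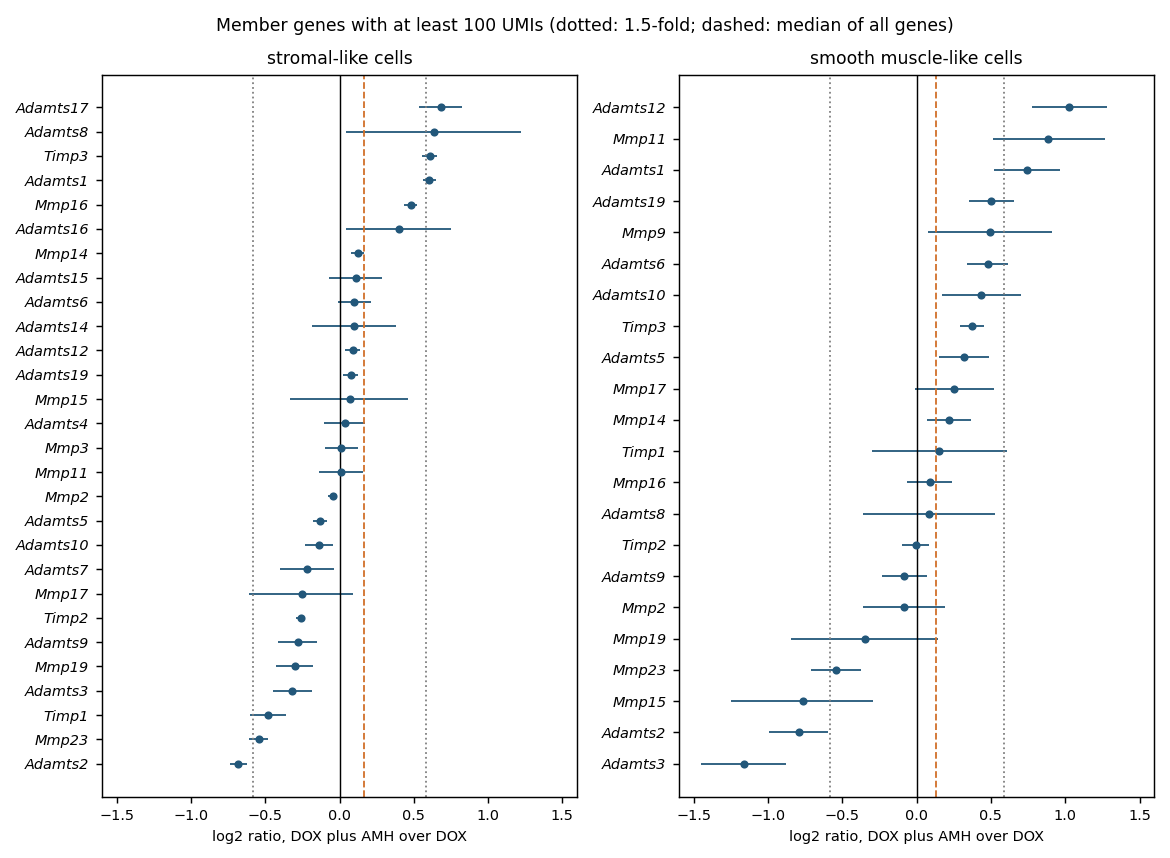
Log2 ratios (DOX plus AMH over DOX, points) with exact 95% counting intervals (bars) in stromal-like (left) and smooth muscle-like cells (right), without Timp4. Dotted lines mark 1.5-fold, the dashed line the median of all genes, and Adamts2 lies on the low side of both panels (-0.68 and -0.79) and Adamts1 on the high side (0.61 and 0.74).

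Among the gelatinases, which cut denatured collagen and basement membrane, Mmp2 was a stromal gene. Its level in stromal-like cells was 334 CPM (25276 UMIs) in DOX and 324 CPM (13228 UMIs) in DOX plus AMH, a log2 ratio of -0.04 (interval -0.07 to -0.01). In pericyte-like cells it stood at 194 and 132 CPM (log2 ratio -0.56, interval -0.94 to -0.17). By CPM the stromal level was thus nearly the same in both libraries, and the pericyte level was lower in DOX plus AMH. After TMM scaling the stromal log2 ratio was -0.26, with all 7 stromal clusters below 0 (-0.44 to -0.01). The summed stromal markers in pericyte-like cells stood at 12718 and 10689 CPM, and their part in the pericyte Mmp2 value was not tested. Mmp2 was also lower in vascular endothelial-like (51.1 and 26.1 CPM), lymphatic endothelial-like (97.2 and 41.1 CPM) and mesothelial-like cells (28.3 and 14.8 CPM). The summed stromal markers stood at 2741 and 1299 CPM in vascular endothelial-like, 1586 and 1486 CPM in lymphatic endothelial-like and 12839 and 10183 CPM in mesothelial-like cells, and their part in the Mmp2 values was not tested. Of these 3 classes, only lymphatic endothelial-like cells reached 0.2 of the stromal level. In lymphocyte-like cells, which are not known to make Mmp2, it stood at 34.1 and 33.8 CPM, with a UMI in 15.4% and 10.8% of cells. Stromal-like cells had a UMI in 91.6% and 84.8% of cells. Median depth was 5613.5 and 5594 UMIs for lymphocyte-like cells, and 14721 and 10161 UMIs for the stromal class.

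Mmp9, the gelatinase of neutrophils and other myeloid cells, was scarce. It was highest by CPM in neutrophil-like cells of DOX plus AMH, with 56 UMIs in 10 of 12 cells, while the DOX library held 1 UMI in 2 such cells. In macrophage or monocyte-like cells it stood at 26.7 CPM (69 UMIs) and 10.2 CPM (26 UMIs), a total under the 100 UMIs needed for a ratio. Smooth muscle-like cells gave 8.28 and 11.6 CPM (log2 ratio 0.49, interval 0.08 to 0.91), with a log2 ratio of -0.01 when each library was clustered on its own.

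The stromelysins and their neighbours on chromosome 9 were mostly near the limit of detection. Of the 9 genes in the run, 6 stayed under 100 UMIs in total, namely Mmp1b (2), Mmp20 (10), Mmp8 (24), Mmp7 (34), Mmp13 (35) and Mmp10 (83). Mmp10 and Mmp7, a stromelysin and a matrilysin, were mainly epithelial-like, with 48 and 18 UMIs of Mmp10 and 22 and 5 of Mmp7 there. Mmp13, a collagenase, was found at 12 and 13 UMIs in macrophage or monocyte-like cells. Mmp21 (30), Mmp24 (74), Mmp25 (81) and, in the ADAMTS family, Adamts13 (40), the von Willebrand factor protease, were the other 4 genes under 100 UMIs.

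Mmp12, the macrophage elastase, had 20 UMIs in DOX and 221 in DOX plus AMH. Of the latter, 155 UMIs came from 32 of the 70 erythroid-like cells of DOX plus AMH, against 0 UMIs in the 4 such cells of DOX. In macrophage or monocyte-like cells there were 19 UMIs in 2 cells of DOX and 60 UMIs in 7 cells of DOX plus AMH, of which 37 lay in 1 cell. Few cells therefore carry the difference, and the erythroid-like class held 4 and 70 cells.

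Mmp3, a stromelysin that cuts proteoglycans and activates other proteases, showed no difference over stromal-like cells as a whole, at 24.9 and 25.1 CPM (log2 ratio 0.01, interval -0.10 to 0.12). Within the stroma it lay mainly in a pair of clusters, with opposite differences. In the cluster led by Il6, Cxcl1 and Has1 (232 and 76 cells) it stood at 233 CPM (1068 UMIs) in DOX and 73.3 CPM (99 UMIs) in DOX plus AMH, a log2 ratio of -1.67 (interval -1.98 to -1.37). In the cluster led by Col14a1 and Prlr (869 and 638 cells) it stood at 61.2 CPM (722 UMIs) and 125 CPM (841 UMIs), a log2 ratio of 1.03 (interval 0.89 to 1.18). With the cells of both clusters summed, the level was 109 and 116 CPM (log2 ratio 0.09, interval -0.03 to 0.20). Stromal-like cells without the Il6-led cluster gave 11.5 and 23.5 CPM for Mmp3 (log2 ratio 1.03, interval 0.89 to 1.17). Whether cells moved from one cluster to the other or changed their Mmp3 level cannot be told apart here. In the Il6-led cluster the summed macrophage or monocyte markers stood at 59.0 and 28.1 CPM with 0 and 4 of 10 at 0, and the dividing markers at 229 and 24.4 CPM. In the Col14a1-led cluster the summed adipocyte markers stood at 7.29 and 58.1 CPM (1 of 5 at 0 in both libraries) and the squamous markers at 1.70 and 55.9 CPM (4 and 0 of 9 at 0). Their part in the Mmp3 values was not tested.

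Timp1, the secreted inhibitor induced by cytokines, lay in the same pair of clusters. It stood at 189 and 113 CPM in the Il6-led cluster (log2 ratio -0.75, interval -1.01 to -0.50) and at 42.6 and 58.6 CPM in the Col14a1-led cluster (log2 ratio 0.46, interval 0.27 to 0.65). Over all stromal-like cells it was lower in DOX plus AMH, at 27.5 and 19.7 CPM (log2 ratio -0.48, interval -0.60 to -0.36). Without the Il6-led cluster the values were 17.0 and 16.5 CPM (log2 ratio -0.05, interval -0.19 to 0.09). Timp1 was also lower in stromal cells outside both clusters and the dividing one, at 11.1 and 7.84 CPM (log2 ratio -0.50, interval -0.72 to -0.28). In the Frmpd4-led cluster it stood at 9.95 and 4.91 CPM (log2 ratio -1.02, interval -1.54 to -0.53), and in the Cxcl14-led cluster the log2 ratio was -0.62 (interval -1.01 to -0.24). The Il6-led cluster made up 232 of 4932 and 76 of 3685 stromal-like cells. In mesothelial-like cells Timp1 was higher in DOX plus AMH, at 87.4 CPM (201 UMIs) and 182 CPM (614 UMIs), a log2 ratio of 1.06 (interval 0.83 to 1.29).

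**Figure D3:**
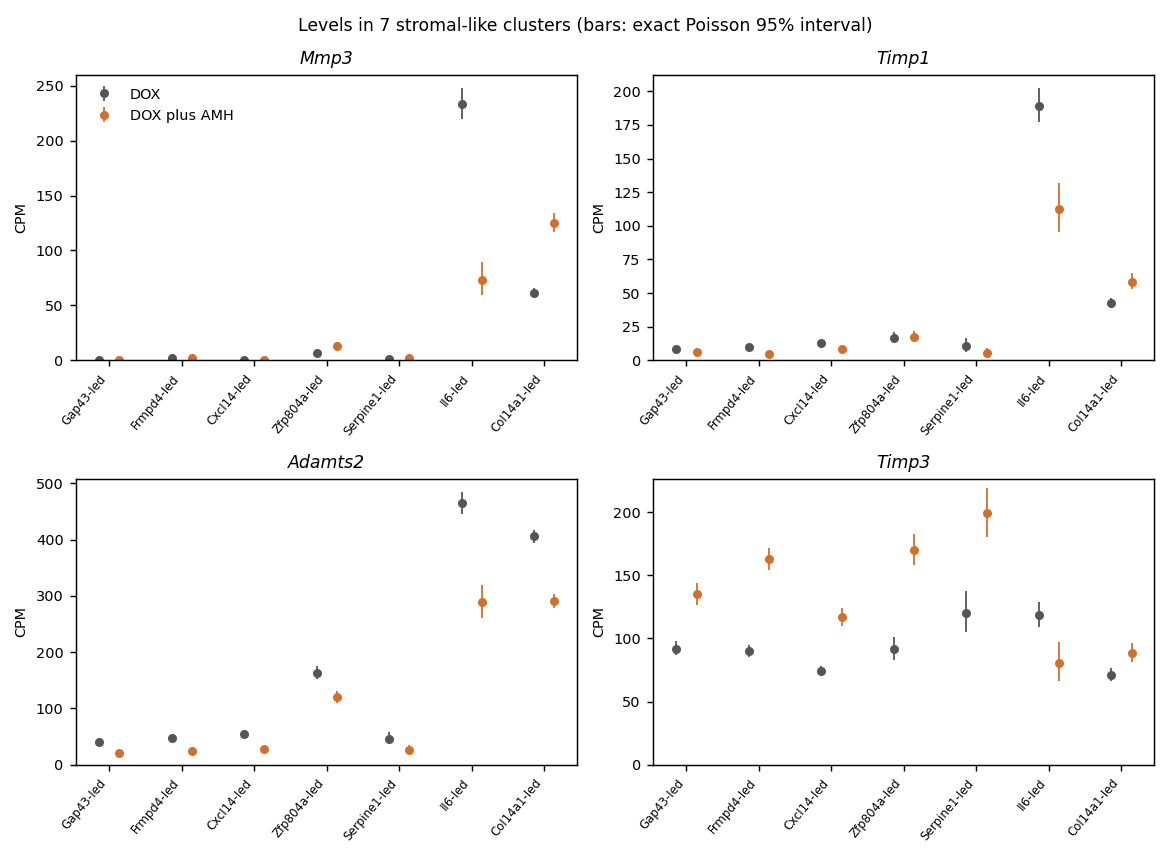
Levels of Mmp3, Timp1, Adamts2 and Timp3 (CPM, linear axes) in 7 stromal-like clusters, named by a leading gene, for DOX (grey) and DOX plus AMH (orange), with exact Poisson 95% intervals. Mmp3 stands at 233 and 73.3 CPM in the Il6-led cluster and at 61.2 and 125 CPM in the Col14a1-led cluster, while Adamts2 is lower in DOX plus AMH in all 7.

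Membrane-type proteases sit on the cell surface and include Mmp14, the main activator of pro-Mmp2. Mmp14 stood at 158 and 172 CPM in stromal-like cells (log2 ratio 0.12, interval 0.08 to 0.16) and had a ratio above 0 in 7 of 7 stromal clusters, but after TMM scaling in 3 of 7 and below 0 over the class (-0.10). Mmp16, also membrane-bound, stood at 116 and 162 CPM (log2 ratio 0.48, interval 0.43 to 0.52) and was above 0 in 7 of 7 stromal clusters with either scaling. In mesothelial-like cells Mmp16 was lower in DOX plus AMH, at 40.9 and 18.7 CPM (log2 ratio -1.13, interval -1.61 to -0.65). Mmp14 in macrophage or monocyte-like cells stood at 25.6 and 54.7 CPM (log2 ratio 1.10, interval 0.67 to 1.54), but 0.19 with called doublets kept. Mmp19, a secreted protease, stood there at 13.2 and 27.2 CPM (log2 ratio 1.04, interval 0.43 to 1.68). Mmp15 in smooth muscle-like cells stood at 9.75 and 5.73 CPM (log2 ratio -0.77, interval -1.25 to -0.29, and -0.41 with each library clustered on its own).

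Mmp23, an atypical metalloprotease without a hemopexin domain, was lower in DOX plus AMH throughout the stroma. It stood at 102 CPM (7729 UMIs) and 70.0 CPM (2861 UMIs), a log2 ratio of -0.54 (interval -0.61 to -0.48). All 7 stromal clusters were below 0 with either scaling, from -0.88 in the Frmpd4-led to -0.17 in the Il6-led cluster, whose interval reached 0.04. Smooth muscle-like cells gave 70.7 and 48.5 CPM (log2 ratio -0.54, interval -0.71 to -0.38), but a log2 ratio of 0.20 when each library was clustered on its own. In mesothelial-like cells Mmp23 was higher, at 65.7 and 103 CPM (log2 ratio 0.65, interval 0.37 to 0.94), and 0.55 with doublets kept. Mmp11, known as stromelysin-3 and cut to its active form inside the cell, was level over stromal-like cells as a whole (14.0 and 14.1 CPM). Over 5 stromal clusters its log2 ratio ran from -0.45 to 0.88, with 2 above 0 and 3 below. The Col14a1-led cluster was at least 1.5-fold higher. In smooth muscle-like cells Mmp11 was higher, at 9.12 and 16.8 CPM (log2 ratio 0.88, interval 0.51 to 1.27, and 0.41 with each library clustered on its own).

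Adamts1 cleaves versican and is known as a progesterone-induced gene of the ovarian follicle. In stromal-like cells it stood at 111 CPM (8438 UMIs) in DOX and 170 CPM (6927 UMIs) in DOX plus AMH, a log2 ratio of 0.61 (interval 0.56 to 0.65). After thinning each cell to 2000 UMIs, which left out 96 and 66 shallower stromal-like cells, 17.9% of DOX and 25.6% of DOX plus AMH stromal-like cells held a UMI, against 1.32% and 2.56% of lymphocyte-like cells. The unthinned shares were 56.5% and 60.2%. Adamts1 was above 0 in 7 of 7 stromal clusters compared, from 0.19 to 0.95, and from 0.02 to 0.83 with TMM scaling. In the dividing cluster, which was not compared, it stood at 39.4 CPM (202 UMIs) and 31.5 CPM (36 UMIs). Summed ciliated markers there stood at 15.8 and 2284 CPM and epithelial markers at 46.6 and 1122 CPM, and their part was not tested. Adamts1 was at least 1.5-fold higher in 6 of the 7 classes counted. Its levels were 159 and 321 CPM in pericyte-like, 80.4 and 166 CPM in mesothelial-like and 225 and 350 CPM in cluster 17. Vascular endothelial-like cells were the exception, at 103 and 98.0 CPM (log2 ratio -0.08, interval -0.33 to 0.18). Without the dividing cluster the stromal ratio was 0.57, just under 1.5-fold. In smooth muscle-like cells the values were 26.2 and 43.8 CPM (log2 ratio 0.74, interval 0.52 to 0.97), but 0.04 when each library was clustered on its own. The smooth muscle level, like the lymphatic endothelial one, was under 0.2 of that in cluster 17.

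Adamts5 and Adamts4 are the aggrecanases, and Adamts5 lies 53059 bases from Adamts1 on chromosome 16. Unlike its neighbour, Adamts5 was slightly lower in stromal-like cells, at 146 and 134 CPM (log2 ratio -0.13, interval -0.18 to -0.08). Its level in cluster 17, its highest class, was 294 and 314 CPM (log2 ratio 0.10, interval -0.08 to 0.27). The ratios of the neighbours thus differed in stromal-like cells and in cluster 17. Both were above 0 in mesothelial-like (Adamts1 1.04, Adamts5 0.46) and smooth muscle-like cells (0.74 and 0.32). With each library clustered on its own, the smooth muscle-like values were 0.04 and -1.16. Adamts4 was level over stromal-like cells as a whole (16.0 and 16.4 CPM), but its ratio differed within the stroma. In the Il6-led and Col14a1-led clusters together the log2 ratio was -0.32 (interval -0.52 to -0.12). Outside these and the dividing cluster it was 0.51 (interval 0.31 to 0.71). Of 6 stromal clusters counted, 5 were above 0, and 3 after TMM scaling. In pericyte-like cells Adamts4 was higher, at 45.1 CPM (27 UMIs) and 90.9 CPM (78 UMIs), a log2 ratio of 1.01 (interval 0.36 to 1.70). In vascular endothelial-like cells it was lower, at 36.2 CPM (68 UMIs) and 20.7 CPM (80 UMIs), a log2 ratio of -0.81 (interval -1.29 to -0.32). The pericyte ratio ranged from 0.94 to 2.27 over the alternative settings. Adamts9, another versicanase, with its highest level in this class, stood at 426 CPM (799 UMIs) and 306 CPM (1182 UMIs) in vascular endothelial-like cells (log2 ratio -0.48, interval -0.61 to -0.35).

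Adamts2, Adamts3 and Adamts14 remove the amino-terminal propeptide of procollagens. Adamts2 stood at 141 CPM (10648 UMIs) in DOX and 87.8 CPM (3586 UMIs) in DOX plus AMH in stromal-like cells, a log2 ratio of -0.68 (interval -0.74 to -0.63). Every one of the 7 stromal clusters counted was lower, from -1.03 in the Frmpd4-led cluster (48.0 and 23.5 CPM) to -0.44 in the Zfp804a-led cluster (163 and 120 CPM), with each interval below 0. The thinned share of stromal-like cells with a UMI was 20.3% and 13.8%, against 2.63% and 1.28% of lymphocyte-like cells. Without the Il6-led cluster the ratio was -0.57, just under 1.5-fold. Smooth muscle-like cells gave 53.9 and 31.1 CPM (log2 ratio -0.79, interval -0.99 to -0.59, and -0.47 with each library clustered on its own) and cluster 17 gave 43.3 and 22.7 CPM (-0.93, interval -1.49 to -0.38). Epithelial-like cells alone were above 0 of the 6 classes counted, at 5.20 and 6.47 CPM, a level below that of lymphocyte-like cells in DOX (15.1 CPM). Adamts3 was lower in smooth muscle-like cells, its highest class, at 30.9 CPM (295 UMIs) and 13.8 CPM (154 UMIs), a log2 ratio of -1.16 (interval -1.46 to -0.88). In stromal-like cells Adamts3 stood at 20.6 and 16.6 CPM (log2 ratio -0.32, interval -0.45 to -0.19), while Adamts14 was low (3.79 and 4.06 CPM).

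The remaining ADAMTS genes have less settled substrates. Adamts12 stood at 113 and 120 CPM in stromal-like cells, with a sign that turned under TMM scaling (0.09 and -0.13). In smooth muscle-like cells it was at 19.2 CPM (183 UMIs) and 39.0 CPM (436 UMIs), a log2 ratio of 1.03 (interval 0.77 to 1.28), although that level is 0.11 of its highest class. Adamts17, a gene of fibrillin-rich matrix, stood at 11.2 and 18.0 CPM in stromal-like cells (log2 ratio 0.68, interval 0.54 to 0.83). It was lower in mesothelial-like cells, at 27.0 and 16.9 CPM (log2 ratio -0.67, interval -1.22 to -0.13). Its gene overlaps the pseudogene Gm17909 on the same strand. Adamts6 was the one member highest in epithelial-like cells, at 123 and 96.9 CPM (log2 ratio -0.35, interval -0.48 to -0.22). It was lower in mesothelial-like cells (63.9 and 30.2 CPM) and cluster 17 (49.8 and 21.8 CPM). The Il6-led stromal cluster was also lower for Adamts6, at 66.2 CPM (303 UMIs) and 17.8 CPM (24 UMIs). Smooth muscle-like cells went the other way, with a log2 ratio of 0.48 (0.35 to 0.49 over the alternative settings). The 2 smooth muscle clusters stood at 0.32 and 0.68. Adamts19 stood at 123 and 130 CPM in stromal-like cells (log2 ratio 0.07, and -0.14 after TMM scaling), and Adamts16 at 23.3 and 40.9 CPM in cluster 17 (log2 ratio 0.81, interval 0.24 to 1.41). Adamts8 held 56 and 47 UMIs in stromal-like cells, a level 0.04 of that in cluster 17.

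Among the inhibitors, Timp3 was higher in DOX plus AMH most widely. In stromal-like cells it stood at 87.3 CPM (6604 UMIs, interval 85.2 to 89.4) in DOX and 133 CPM (5427 UMIs, interval 129 to 136) in DOX plus AMH, a log2 ratio of 0.61 (interval 0.55 to 0.66). Its ratio was above 0 in 8 of the 8 classes counted with either scaling, and the interval lay above 0 in 6. In lymphatic endothelial-like cells, its highest class, it stood at 700 and 1134 CPM (log2 ratio 0.70, interval 0.57 to 0.82). The stromal level was under 0.2 of this and so did not pass the guard against free RNA. Vascular endothelial-like cells gave 558 and 778 CPM (log2 ratio 0.48, interval 0.38 to 0.58) and cluster 17 gave 445 and 723 CPM (0.70, interval 0.57 to 0.83). Pericyte-like (581 and 647 CPM) and mesothelial-like cells (138 and 150 CPM) had intervals that held 0. Lymphocyte-like cells stood at 15.1 and 30.2 CPM, and epithelial-like cells were close to them at 16.7 and 31.8 CPM. After thinning, 14.8% and 22.4% of stromal-like cells held a Timp3 UMI, against 3.95% and 3.85% of lymphocyte-like cells. Within the stroma 6 of the 7 clusters compared were above 0, and the Il6-led cluster was lower, at 118 and 80.7 CPM (log2 ratio -0.55, interval -0.86 to -0.25). Timp3 in the dividing cluster stood at 108 CPM (554 UMIs) and 72.6 CPM (83 UMIs), and the part of the ciliated and epithelial markers there was not tested.

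**Figure D4:**
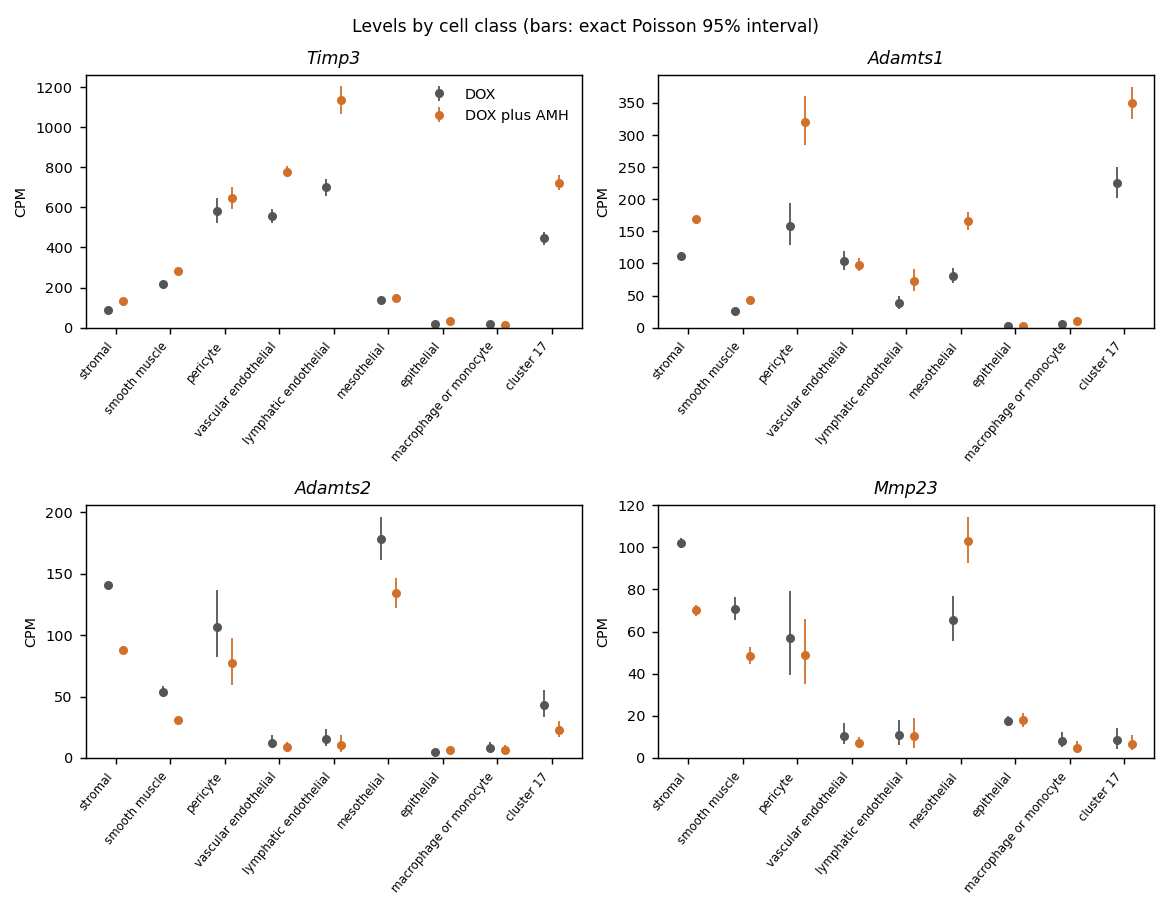
Levels (CPM, linear axes) of Timp3, Adamts1, Adamts2 and Mmp23 in 9 cell classes for DOX (grey) and DOX plus AMH (orange), with exact Poisson 95% intervals. Timp3 and Adamts1 sit higher in DOX plus AMH in stromal-like cells (87.3 to 133 and 111 to 170 CPM) and Adamts2 lower (141 to 87.8 CPM), while Mmp23 is lower in stromal-like and higher in mesothelial-like cells.

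Timp2, which both inhibits Mmp2 and helps Mmp14 to activate it, held the most UMIs of all 45 genes. It stood at 397 CPM (30025 UMIs) and 331 CPM (13526 UMIs) in stromal-like cells, a log2 ratio of -0.26 (interval -0.29 to -0.23). All 7 stromal clusters were below 0 with either scaling, from -0.40 to -0.07. Mesothelial-like cells, its highest class, gave 863 and 1001 CPM (log2 ratio 0.21, interval 0.13 to 0.29). Timp2 overlaps Cep295nl on the same strand. Timp4, the rarest inhibitor, held 6 UMIs in DOX and 249 UMIs in DOX plus AMH in stromal-like cells (0.08 and 6.10 CPM, log2 ratio 6.26). Of the 249, 242 lay in 11 cells of the dividing cluster, and 9 of those 11 held at least 3 of the 6 ciliated-cell markers. In that cluster the summed ciliated markers stood at 15.8 CPM in DOX, with 2 of 6 at 0, and at 2284 CPM in DOX plus AMH, with none at 0. Without that cluster Timp4 held 6 and 7 UMIs in stromal-like cells.

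In the smaller classes the counts of members past 1.5-fold were few. Some of those counted were under 0.2 of their highest class. Besides those given below, they were Adamts12 in cluster 17, Mmp2 and Adamts5 in vascular endothelial-like and Mmp2 in mesothelial-like cells. Mmp2 and Adamts6 in macrophage or monocyte-like cells were also under it. Pericyte-like cells had 2 of 10 higher (Adamts1 and Adamts4; 8.3% of all genes were higher) and none lower (5.17%). Cluster 17 had 4 of 12 higher (Adamts1, Adamts12, Adamts16 and Timp3; 6.6%) and 2 lower (Adamts2 and Adamts6; 3.53%). Vascular endothelial-like cells had none of 12 higher (4.27%) and 3 lower (Mmp2, Adamts4 and Adamts5; 3.4%). Lymphatic endothelial-like cells had 2 of 6 higher (Adamts1, at 0.19 of its highest class, and Timp3; 4.79%) and 1 lower (Mmp2; 6.66%). A further 40 and 1 cells led by lymphatic genes such as Prox1 and Reln stayed unnamed and outside that class. Mesothelial-like cells had the widest spread, with 4 of 15 higher (Mmp23, Adamts1, Adamts9 and Timp1; 7.5%) and 4 lower (Mmp2, Mmp16, Adamts6 and Adamts17; 14.5%). Markers of other cells also differed in that class, with summed smooth muscle markers at 1209 and 243 CPM, macrophage or monocyte markers at 240 and 73.5 CPM and squamous markers at 7.39 and 367 CPM, and their part was not tested. Adamts9 stood there at 27.0 and 85.4 CPM (log2 ratio 1.66, interval 1.26 to 2.08), at 0.15 of its vascular level. Epithelial-like cells had 3 of 10 higher (Adamts17, Timp2 and Timp3; 4.99%) and 1 lower (Adamts9; 4.59%), and only Adamts17 among these reached 0.2 of its highest class. Macrophage or monocyte-like cells had 3 of 5 higher (Mmp2, Mmp14 and Mmp19; 10.7%) and 1 lower (Adamts6; 7.88%).

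Genes that work with these proteases were counted in lists chosen with earlier results of these data known. The shares of all genes to read them against are those above, 11.3% higher and 3.98% lower for the stromal class, with 6.92% higher and 3.51% lower for smooth muscle. In stromal-like cells the fibrous and sheet substrates (collagens, laminins, Eln and Fbn1) had a median log2 ratio of -0.47 over 12 genes, with 2 at least 1.5-fold lower, Col4a1 (309 and 187 CPM, -0.73) and Col6a1 (1424 and 934 CPM, -0.61), and none higher. The proteoglycan and glycoprotein substrates had a median of -0.13 over 9, with none past 1.5-fold, and Vcan, the substrate of Adamts1, stood at 130 and 99.9 CPM (-0.38). Serpins, Reck and other inhibitors had 2 of 9 lower, A2m (284 and 156 CPM, -0.87), a broad protease trap, and Serpine2 (79.2 and 51.2 CPM, -0.63), and none higher. Among activating proteases Prss23 was the 1 of 7 lower (132 and 83.7 CPM, -0.66). ADAM proteases had 2 of 8 higher, Adam8 (0.77 and 5.29 CPM, 2.79) and Adam33 (1.23 and 2.55 CPM, 1.05). Adam33 stood far higher in smooth muscle-like cells, at 11.9 and 11.9 CPM, and the part of free RNA in its stromal values was not tested. ADAMTS-like genes, which lack a protease domain, had Adamtsl3 higher (7.21 and 11.1 CPM, 0.63) and Adamtsl2 lower (1.52 and 1.00 CPM, -0.60) of 6. Of the regulators, Jun (183 and 280 CPM, 0.62) and Fosb (28.7 and 43.2 CPM, 0.59) were higher and Il6 (19.1 and 9.84 CPM, -0.96) lower of 11, and Il6 also leads the cluster that held most Mmp3 in DOX. None of 6 cathepsins and 1 of 7 clearance genes, Ddr1 (17.9 and 29.5 CPM, 0.72), were past 1.5-fold.

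In smooth muscle-like cells the fibrous and sheet substrates had a median of -0.35 over 12. Of these, 1 was higher, Lama2 (32.2 and 84.0 CPM, 1.38), a laminin chain. Lama2 stood far higher in stromal-like cells, at 628 and 805 CPM. Bgn, a small proteoglycan, stood at 74.9 and 140 CPM (0.90), the 1 of 8 proteoglycan and glycoprotein substrates past 1.5-fold. Adamtsl1 (127 and 231 CPM, 0.86) and Adamtsl3 (71 and 313 UMIs, 1.91) were higher, 2 of 3 counted. A2m (9.43 and 2.96 CPM, -1.67) was lower, far under its level in stromal-like cells (284 and 156 CPM). The part of free RNA in the Lama2 and A2m values of smooth muscle-like cells was not tested. The summed stromal markers in stromal-like cells, which include collagens of the substrate list, stood at 19011 and 14716 CPM.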

How the data were processed

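Single-cell UMI counts of 1 library per group were analysed. Per the submitters' processing notes, the authors made the deposited counts with Cell Ranger 7.0.0 on build mm10, and the counting options are not given in the sources used here. The shallowest barcode of either matrix has 500 UMIs. Cells needed 1000 UMIs, 500 detected genes and a mitochondrial share of no more than 15%, which 7783 DOX and 7065 DOX plus AMH barcodes met. Scrublet in scanpy 1.11.5, at an expected rate of 8%, called 440 and 327 doublets, which were removed. Cluster numbers, leading genes and results without the Il6-led or dividing cluster, or with DOX cluster weights, were added after seeing the data, and the expected rate and the scoring that named clusters were set after seeing the data.

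Cells were clustered together without the 45 genes (2000 variable genes, 30 principal components, 15 neighbours, Leiden resolution 1). Within each library, the UMIs of a class were summed and turned into CPM with the class's total as denominator. Ratios have exact intervals from the binomial split of the UMIs and levels exact Poisson intervals. The calculation was tested on simulated data. A gene was counted in a class with at least 50 cells in each library and at least 100 UMIs in both libraries together, and called at 1.5-fold. The rule for named genes took called members whose level was not under 0.2 of that in the class where they were highest. Other members are given by role, chosen after their values were seen. TMM factors came from edgeR 4.0.16. Gene positions are from GENCODE on mm10. Of the 45 genes, 22 overlap another annotated gene, 2 of them on the same strand. The members and lists were chosen with earlier results of these data known.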

Additional observations from a re-analysis of the deposited data

Results flagged for a closer look

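Some ratios ran in opposite directions, past 1.5-fold with counting intervals clear of 0, in different cell classes or stromal clusters. The difference between the classes or clusters was not tested. For Adamts17 the log2 ratio was 0.68 in stromal-like cells and 0.66 in epithelial-like cells, and -0.67 in mesothelial-like cells. The stromal value was under 1.5-fold with TMM scaling (0.46), the epithelial value under 3 settings (lowest 0.41) and the mesothelial value with TMM scaling (-0.52) and with doublets kept (-0.47). For Adamts4 it was 1.01 in pericyte-like cells, from 27 and 78 UMIs (0.94 to 2.27 over the settings), and -0.81 in vascular endothelial-like cells, from 68 and 80 UMIs. For Adamts6 it was 0.60 in the Zfp804a-led stromal cluster and -1.90 in the Il6-led stromal cluster. For Mmp3 it was 1.03 in the Col14a1-led and -1.67 in the Il6-led stromal cluster.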

How the results depend on the processing

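No paired analysis was possible because each group is 1 library. Depending on the setting, 29 to 70 ratios could be recomputed, 6 to 31 of them past 1.5-fold, and no ratio past 1.5-fold changed sign. Of 31, 25 kept their call after TMM scaling, and 29 did when ribosomal protein and mitochondrial genes were left out of the CPM total. Among stromal-like cells the 5 members called higher became 1 with TMM (Timp4), 3 with nuclear-gene CPM, 3 with cells gated one by one, 2 without the dividing cluster, 3 with DOX cluster weights and 1 at 2-fold, and 6 without the Il6-led cluster, with Mmp3 added. The 1 called lower became 3 with TMM (Mmp23, Adamts2 and Timp1), 2 with nuclear-gene CPM, 2 with a minimum of 20 UMIs, 0 without the Il6-led cluster and 0 at 2-fold. In smooth muscle-like cells the 3 higher became 1 at 2-fold and 5 with a minimum of 20 UMIs, and the 3 lower became 1 at 2-fold. When each library was clustered on its own, smooth muscle-like cells kept Adamts12 (higher) and Adamts3 (lower), lost Mmp11, Adamts1, Mmp15 and Adamts2, and gained Mmp2, Mmp14 and Timp1 higher and Adamts5 lower. The causes were not tested. Depth limits the classes of under 300 cells per library, where most members stayed under 100 UMIs.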

Other observations

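Squamous-like cells, of which 7 came from DOX and 483 from DOX plus AMH, also held members that were highest in vascular endothelial-like cells. In squamous-like cells of DOX plus AMH, Mmp15, a membrane-type protease, stood at 27.8 CPM (371 UMIs). Mmp28, known as epilysin and made by keratinocytes, stood there at 16.0 CPM (213 UMIs), and Adamts18 at 9.67 CPM (129 UMIs). Timp1 in macrophage or monocyte-like cells held 8 UMIs in DOX and 81 UMIs in DOX plus AMH (3.10 and 31.9 CPM), under the minimum for a ratio, and was singled out after its values were seen.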
